A study of Equus caballus with 8 samples.

Results

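Mast cells are tissue-resident granulocytes that store histamine and proteases in granules and release them when antigen cross-links IgE on their surface. Their growth and survival depend on KIT, a receptor tyrosine kinase whose ligand, KITLG (stem cell factor), is made by neighbouring epithelial, stromal and endothelial cells. In the equine endometrium they lie in the stroma. Described here are 7 genes: KITLG, its receptor KIT, the alpha and beta chains of the high-affinity IgE receptor (FCER1A and MS4A2), and 3 genes of granule contents, the tryptase TPSB2, the protease carboxypeptidase A3 (CPA3) and the histamine-forming enzyme histidine decarboxylase (HDC). They were chosen by symbol, and each of the 7 matched a horse Gene ID among the 24942 genes of the count table. CPA3 did not pass the filter on low counts, so 6 members were among the 15342 genes tested.

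Messenger RNA was sequenced from endometrial biopsies of 4 normally cycling Bavarian Warmblood mares. Biopsies were taken from each mare at Day 12, once in a pregnancy and once in a non-pregnant oestrous cycle, in random order, so that 4 pregnant and 4 cyclic libraries form 4 pairs. In all mares ovulation was induced with human chorionic gonadotropin and the uterus was flushed before the biopsy. Pregnancy was established by ultrasound of the embryonic vesicle, and the labels do not say whether mares were also inseminated in the cycle that gave the control biopsy. A biopsy holds all cell types of the endometrium, so fewer mast cells and less RNA per mast cell cannot be told apart. Total counts ran from 15.5 to 16.7 M in 7 libraries and were 9.81 M in the pregnant library of mare 1.

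KITLG was the member that changed with pregnancy, and it fell. In the cycle KITLG had 115, 109, 77.6 and 174 TMM-scaled CPM (counts per 1e+06 counts, corrected for composition by the trimmed mean of M values, and called CPM from here on) in mares 1 to 4. In pregnancy KITLG had 91.3, 96.2, 48.8 and 92.1 CPM in the same mares. Each mare was thus lower in pregnancy, while the ranges of both groups overlapped, since mare 3 was low and the cyclic biopsy of mare 4 was high. The mean fell from 119 ± 40.2 to 82.1 ± 22.3 CPM (SD, n = 4). Its log2 fold change was -0.53 ± 0.12 (SE, adjusted p = 0.0218 over all genes tested, edgeR's quasi-likelihood test with Benjamini-Hochberg adjustment), which is 30.5% lower. On simulated counts this test made more false calls than its threshold allows. Of the 6 members tested this was 1, and 16.7% of all genes tested changed, 8.53% upwards and 8.19% downwards. The log2 ratio of pregnancy to cycle within a mare was -0.34, -0.17, -0.67 and -0.92 for mares 1 to 4. The adjusted p of KITLG was 0.0539 without mare 1 and 0.0834 without mare 3, and 0.353 when the mare was left out of the model, with log2 fold changes of -0.59, -0.49 and -0.54. Counts per gene do not separate the soluble and the membrane-bound form of the ligand, which come from 1 gene.

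Its receptor KIT was higher in pregnancy in 3 of 4 mares but did not pass the test. KIT had 14.2, 5.47, 4.53 and 22.5 CPM in the cycle and 24.5, 10.9, 3.88 and 23.8 CPM in pregnancy. Mares 1 and 4 were high and mare 3 was low in both biopsies, and the groups overlapped. The means were 11.7 ± 8.42 and 15.8 ± 10.1 CPM (SD, n = 4), and the log2 fold change was 0.43 ± 0.20 (SE; 95% interval -0.03 to 0.89; adjusted p = 0.187). Read against its ligand, KIT had 12.3, 5.04, 5.84 and 12.9 counts per 100 KITLG counts in the cycle. In pregnancy it had 26.8, 11.3, 7.95 and 25.9 counts per 100 KITLG counts. This ratio of counts, which does not depend on library scaling, was higher in pregnancy in 4 of 4 mares, by 0.94 ± 0.33 on the log2 scale (SD, n = 4), or 1.91-fold. An exact two-sided sign-flip permutation test gave p = 0.125, the smallest value that 4 pairs allow, and the ratio was formed after the values had been seen.

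The 2 chains that are particular to the IgE receptor did not pass either. FCER1A, the chain that binds IgE, had 3.35, 1.57, 1.06 and 5.21 CPM in the cycle and 5.27, 2.84, 1.07 and 5.09 CPM in pregnancy, from 17 to 86 counts per library. Mares 1 and 2 were higher in pregnancy, and mares 3 and 4 hardly differed between their biopsies. Its log2 fold change was 0.37 ± 0.22 (SE; 95% interval -0.12 to 0.86; adjusted p = 0.284). MS4A2, the beta chain, which amplifies the receptor's signal, had 1.87, 1.19, 0.869 and 4.96 CPM in the cycle and 2.49, 1.61, 0.450 and 4.03 CPM in pregnancy. It was higher in 2 mares and lower in 2, with a log2 fold change of -0.05 ± 0.26 (SE; 95% interval -0.64 to 0.55; adjusted p = 0.931).

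Among the granule genes, TPSB2 was read most often and had the widest interval. TPSB2 had 125, 46.8, 53.9 and 254 CPM in the cycle and 143, 103, 28.8 and 216 CPM in pregnancy. It was higher in pregnancy in mares 1 and 2 and lower in mares 3 and 4, and mare 4 exceeded every other library in both biopsies. The log2 fold change was 0.05 ± 0.40 (SE; 95% interval -1.12 to 1.22; adjusted p = 0.954), an interval that includes a 2-fold change in either direction. Tryptase genes lie in families of near-identical copies, and reads may have been divided between copies in the unstated annotation, so the level of TPSB2 is uncertain. HDC had 2.51, 1.26, 1.92 and 5.58 CPM in the cycle and 2.09, 2.06, 0.619 and 5.68 CPM in pregnancy, with mare 4 above every other library. The log2 fold change of HDC was -0.20 ± 0.32 (SE; 95% interval -0.91 to 0.52; adjusted p = 0.727), with 2 of 4 mares lower in pregnancy. CPA3, in human and mouse a defining mast cell protease, had 1 count in the pregnant library of mare 3 and 0 in the other 7 libraries. In those 7 libraries a count of 0 allows up to 3 counts, or 0.178 to 0.298 CPM depending on the library, a limit for counting error only. Whether the annotation used for counting held a complete CPA3 model is not given in the sources used here, so the low count does not show that the gene was not expressed. TPSB2 had at least 513 counts in each of the same libraries.

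**Figure D1:**
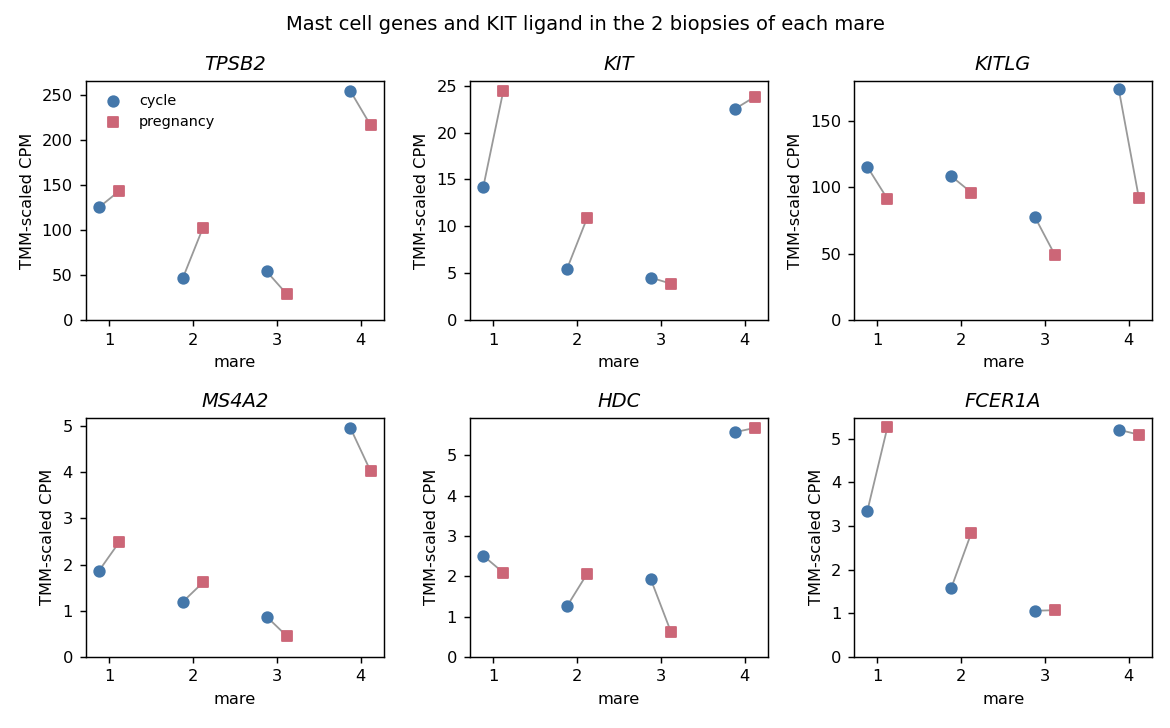
TMM-scaled CPM (y axis, from 0) of the 6 tested genes in the cyclic (circle) and the pregnant (square) biopsy of mares 1 to 4 (x axis), with a line joining the biopsies of a mare. KITLG is lower in pregnancy in 4 of 4 mares. In each of the 6 genes, KITLG among them, mare 4 is highest or next to highest and mare 3 lowest or next to lowest in both states.

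The level of the 5 mast cell genes tested among the members went with the mare rather than with the state. Mares ran 4, 1, 2, 3 from high to low in the mean of their log2 values for 6 of 6 tested members, an order shared by 3.96% of all genes tested. The order was read off the members themselves, which are not independent of each other, so this share is a description and no test. For KITLG mares 1 and 2 were nearly level, with means of 103 and 102 CPM. A joint test of the 3 mare terms in the same model asks whether mares differ beyond the spread left within them. On simulated counts the excess of false calls was larger for this test, so its adjusted p-values may be too small. The simulation altered few genes, and set mare differences in mare 4 only, so the size of the excess in these data is not known. The joint test passed for 5 of 6 members, against 15.9% of all genes tested. These were KIT (adjusted p = 0.00521), FCER1A (0.00669), MS4A2 (0.00716), KITLG (0.0235) and HDC (0.0261). TPSB2 missed the threshold (adjusted p = 0.150; edgeR's quasi-likelihood test with Benjamini-Hochberg adjustment), and its biopsies of mare 2 differed 46.8 to 103 CPM. TPSB2 passed with DESeq2 (adjusted p = 0.00217), in the likelihood ratio test (5.83e-04) and without mare 2 (0.0256). The count of members was 3 of 6 without mare 3 and 3 of 6 without mare 4, the mares at the low and the high end.

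The span between the highest and the lowest mare mean was 2.57 on the log2 scale for TPSB2, 2.60 for MS4A2, 2.43 for KIT, 2.22 for HDC, 2.15 for FCER1A and 1.04 for KITLG. Over all genes tested the median span was 0.41, and 11.5% of genes had a span at least as large as that of KITLG. Between single libraries the 5 mast cell genes ranged 4.99-fold to 11.0-fold and KITLG 3.56-fold. Neighbours in the order were not always separate. For KIT and FCER1A the biopsies of mares 4 and 1 overlapped, for TPSB2 and HDC those of mares 2 and 3 did, and for KITLG only mare 3 lay apart from the mare next to it. For MS4A2 the 2 biopsies of each mare overlapped with those of no other mare. No date, biopsy site or other property that sets the mares apart is given in the sources used here, so the animal and the circumstances of its sampling cannot be told apart.

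**Figure D2:**
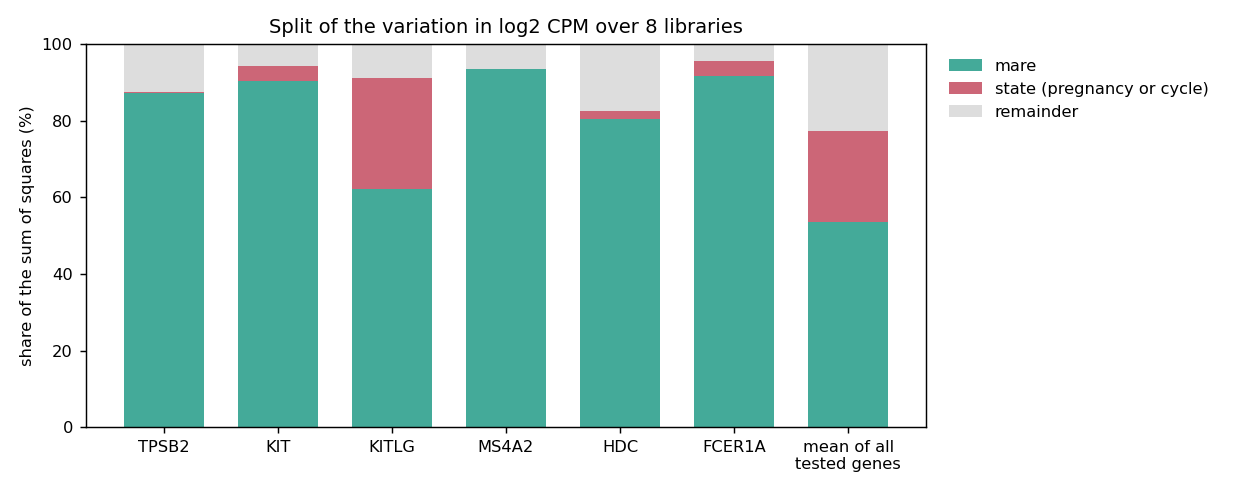
Share of the variation (sum of squares) in log2 CPM over 8 libraries (y axis, percent) that goes with the mare (3 degrees of freedom), the state (1) and the remainder (3), for each tested gene and as the mean over all genes tested. The mare takes 80.5 to 93.3% for the 5 mast cell genes and 62.1% for KITLG, for which the state takes 29.1%.

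The split of the sum of squares shows the same contrast between the ligand and the mast cell genes. The mare accounted for 93.3% in MS4A2, 91.6% in FCER1A, 90.4% in KIT, 87.3% in TPSB2 and 80.5% in HDC, against a mean of 53.5% over all genes tested. The state accounted for 4.06% in FCER1A, 3.91% in KIT, 1.94% in HDC, 0.141% in MS4A2 and 0.0532% in TPSB2, against a mean of 23.8%. In KITLG the mare accounted for 62.1% and the state for 29.1%.

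**Figure D3:**
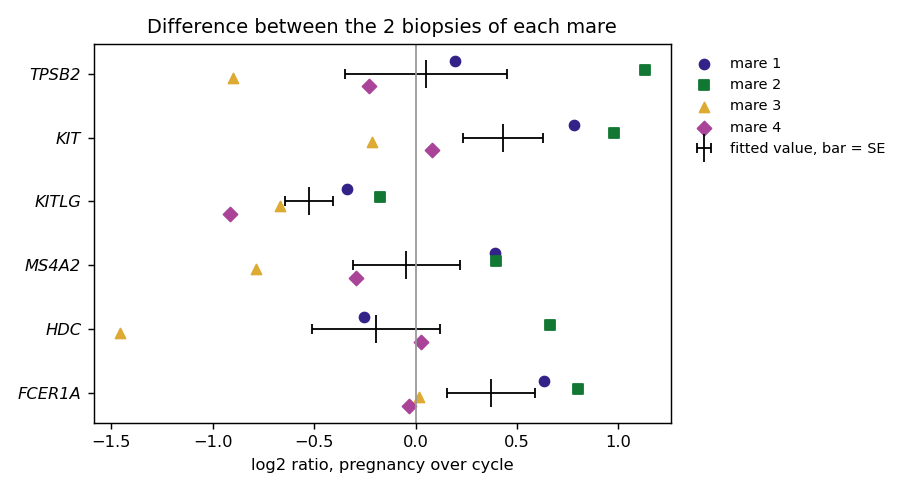
Log2 ratio of pregnancy to cycle (x axis) in each of 4 mares (symbols) for the 6 tested genes, from log2 CPM with a prior count of 2, with the fitted log2 fold change and its standard error (vertical mark and bar). KITLG lies below 0 in each mare (-0.92 to -0.17), and mare 3 is the lowest or next to lowest for each gene.

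Some pairs of mast cell genes varied less in their proportion than in their levels. FCER1A had 21.4 to 28.7 counts per 100 KIT counts over the 8 libraries, a 1.34-fold range, while KIT itself ranged 6.30-fold in CPM. MS4A2 had 1.49 to 2.55 counts per 100 TPSB2 counts, a 1.71-fold range, while TPSB2 ranged 8.81-fold. KIT had 8.40 to 17.1 (2.03-fold) and HDC 1.46 to 3.57 (2.45-fold) counts per 100 TPSB2 counts. The proportion of HDC to KIT varied nearly as much as that of KIT to KITLG, with 8.54 to 42.5 counts per 100 KIT counts, a 4.97-fold range against 5.32-fold. In mare 2 the 5 genes were higher in pregnancy, with log2 ratios from 0.40 (MS4A2) to 1.13 (TPSB2). In mare 3 FCER1A was level at 0.02, and the others were lower, from -0.22 (KIT) to -1.46 (HDC).

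Likeness of pattern was measured as the root mean square difference between centred log2 CPM profiles over the 8 libraries, which come from 4 mares and share their depth. It is given as a description. Among all genes tested, the gene nearest to TPSB2 was MS4A2 and the gene nearest to MS4A2 was TPSB2 (0.23). The gene nearest to KIT was FCER1A (0.17). Among named genes with a mean of at least 1 CPM, TPSB2 was next most like KIT (0.30) and IL1RL1 (0.33), the receptor of interleukin 33. KIT was next most like RHEX (0.26), an erythropoietin receptor adaptor, and UNC5D (0.26), a netrin receptor. FCER1A was most like UNC5D (0.12), KIT and CD36 (0.24), a scavenger receptor and fatty acid carrier. MS4A2 was next most like UNC5D (0.31) and IL1RL1 (0.33), and HDC was most like IL1RL1 (0.26), MS4A2 (0.35) and TPSB2 (0.36). UNC5D and IL1RL1 had means of 1.34 and 1.17 CPM, so their profiles rest on few counts. Among the genes most like KITLG were NLGN1 (0.15), a neuroligin, and PROM1 (0.18), the epithelial surface protein prominin 1, and its distance from the mast cell genes was 0.65 to 0.82. Between mast cell genes the distance was 0.17 to 0.60, the largest being 0.60 between KIT and HDC and 0.58 between FCER1A and HDC. PROM1 fell in pregnancy (log2 fold change -0.36 ± 0.08, adjusted p = 0.0132), a call lost without the mare in the model (adjusted p = 0.528). RHEX was higher in pregnancy in 3 of 4 mares but did not pass (log2 fold change 0.70 ± 0.27, adjusted p = 0.112). It passed in 1 of 12 alternatives, without mare 3 (adjusted p = 0.0459).

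Other genes used as mast cell markers were fewer in reads or not particular to these cells. Of 24 listed, 18 were in the count table and 13 were tested. Of these 13, 1 rose and 0 fell, against 8.53% and 8.19% of all genes tested. Between mares 2 of the 13 differed, against 15.9% of all genes tested. The median log2 fold change was 0.03, against 0.00 over all genes tested. The riser was BMX, a TEC family kinase also made by endothelium, from 0.456 ± 0.099 to 1.23 ± 0.323 CPM (SD, n = 4; adjusted p = 0.0135). IL1RL1 had 1.09, 0.566, 0.745 and 1.86 CPM in the cycle and 1.29, 1.10, 0.281 and 2.43 CPM in pregnancy, again with mare 4 highest in both states (adjusted p = 0.772 between states and 0.0605 between mares). The gamma tryptase TPSG1 had 0 to 16 counts per library, RGS13 1 to 11, and MRGPRX2, a receptor for peptides that activate human skin mast cells, had 0 counts in each of the 8 libraries. GATA2, a transcription factor that mast cells need but that endometrial stroma and epithelium also express, had 318 ± 27.7 and 289 ± 20.6 CPM (adjusted p = 0.358 between states and 0.951 between mares). SLC18A2, the vesicular monoamine transporter, had 30.5 to 73.4 CPM with adjusted p = 0.537 between mares. Of 13 transcription factor genes tested from a list of 18, 2 rose and 0 fell (median log2 fold change 0.23), MITF from 20.3 ± 3.88 to 35.5 ± 5.99 CPM (adjusted p = 0.00263) and TAL1 1.99-fold (adjusted p = 0.0106). Both are also made by other cells, TAL1 by endothelium. Without mare 1 the adjusted p was 0.0778 for BMX and 0.0544 for TAL1, without the mare in the model it was 0.0526 and 0.0895, with DESeq2 BMX had 0.0735, and for SLC18A2 it was 0.0255 without mare 3, whose cyclic value was the lowest.

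Signalling genes downstream of KIT moved in both directions. Besides the members, 19 genes of KIT signalling were tested, of which 4 rose and 4 fell (median log2 fold change 0.16). Over all genes tested 8.53% rose and 8.19% fell. LYN, a SRC family kinase that acts behind both KIT and the IgE receptor, fell from 96.6 ± 18.0 to 65.5 ± 8.99 CPM (adjusted p = 0.00119). FYN, another kinase of that family, rose from 19.3 ± 2.97 to 29.0 ± 2.45 CPM (adjusted p = 0.0135). PIK3CD, a catalytic subunit of phosphoinositide 3-kinase, rose 1.30-fold (adjusted p = 0.00521), and the phosphatase PTPN6 fell (log2 fold change -0.31 ± 0.06; adjusted p = 0.0106). Of 17 genes of IgE receptor signalling, 2 rose and 2 fell (median 0.15). This list shares genes with the former one, among them LYN, FYN and the adaptor GAB2. GAB2 rose 1.24-fold (adjusted p = 0.0225) and STIM1, the calcium sensor of the endoplasmic reticulum, fell from 291 ± 15.6 to 226 ± 33.0 CPM (adjusted p = 0.0212). The shared gamma chain FCER1G had 8.48 to 14.2 CPM and did not pass (adjusted p = 0.258). The call of FYN was lost without mare 2 (adjusted p = 0.0688), that of GAB2 without mare 1, 3 or 4 (0.120, 0.0738 and 0.0765) and that of STIM1 without mare 1 or 2 (0.0501 and 0.0518) and with library totals (0.0692). Without the mare in the model LYN, PIK3CD, PTPN6, GAB2 and STIM1 did not pass (adjusted p 0.0761, 0.194, 0.167, 0.406 and 0.126). Each of these genes is made by many cell types of a biopsy.

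**Figure D4:**
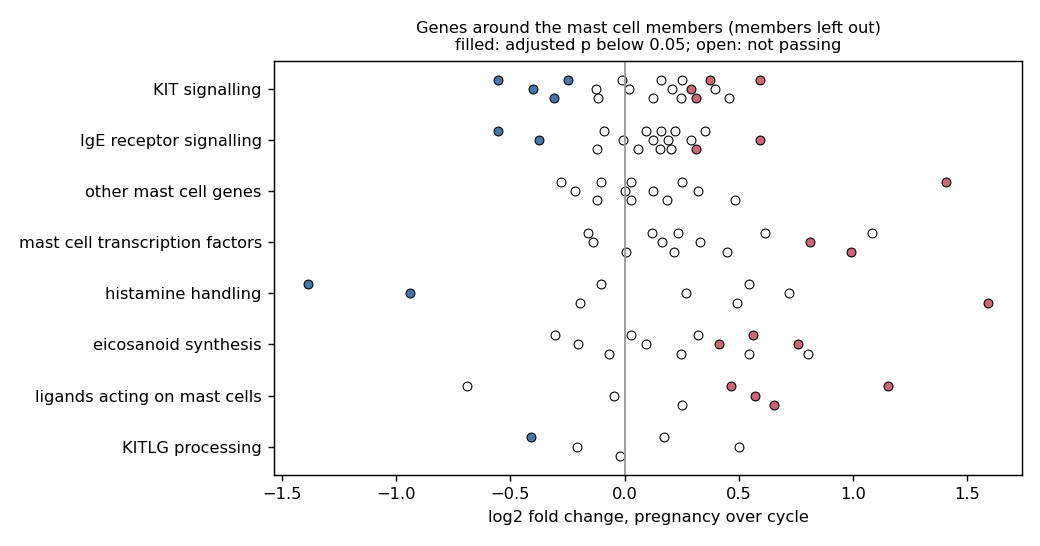
Log2 fold change of pregnancy over cycle (x axis) for the tested genes of 8 lists around mast cells (y axis), with the members left out. Filled points passed the test (adjusted p below 0.05), and open points did not; all 4 that passed among the ligands lie above 0, and those of KIT signalling lie on both sides.

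Genes that make, carry and sense histamine included larger changes than the members. Of 9 tested besides HDC, 1 rose and 2 fell (median log2 fold change 0.27), against 8.53% and 8.19% of all genes tested. SLC29A4, a monoamine transporter, rose from 8.92 ± 2.63 to 29.3 ± 19.0 CPM (adjusted p = 0.00262), and SLC22A3, a cation transporter that takes up histamine, fell from 96.6 ± 39.8 to 48.3 ± 9.49 CPM (adjusted p = 0.00252). SLC22A2, of the same family, fell from 2.75 ± 1.06 to 1.05 ± 0.495 CPM (adjusted p = 0.00545). The pregnant value of SLC29A4 in mare 1 was 57.8 CPM, against 18.2 to 21.8 CPM in the other 3 mares. Without the mare in the model the adjusted p was 0.0691 for SLC29A4, 0.0895 for SLC22A3 and 0.129 for SLC22A2. The histamine receptor HRH1 had 1.19 to 2.19 CPM and did not pass (adjusted p = 0.216). HRH2, HRH3 and HRH4 did not pass the filter on low counts. HNMT, which methylates histamine, had 2.11 to 9.73 CPM and differed between mares (adjusted p = 0.0183) but not past the threshold between states (0.377).

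Of the eicosanoid genes, 12 were tested and 3 rose and 0 fell (median log2 fold change 0.28): the phospholipase PLA2G4A (1.69-fold, adjusted p = 0.0110), the leukotriene A4 hydrolase LTA4H (1.33-fold, 0.00911) and the cyclooxygenase PTGS1 (1.48-fold, 0.0386). Of 7 ligands acting on mast cells besides KITLG, 4 rose and 0 fell (median 0.47). For both lists the share over all genes tested was 8.53% upwards and 8.19% downwards. The chemokine CXCL12 rose from 102 ± 12.0 to 161 ± 20.8 CPM (adjusted p = 0.00190), TGFB1 rose 1.38-fold (0.00764) and CCL5 1.48-fold (0.00967). IL33, the ligand of IL1RL1, rose from 1.05 ± 0.318 to 2.46 ± 1.59 CPM (adjusted p = 0.0215), a call lost in 4 of 12 alternatives. The call of IL33 was lost without mare 3 or 4 (adjusted p 0.119 and 0.0802) and with DESeq2 (0.0677), PLA2G4A without mare 2 (0.0547) and PTGS1 without mare 1 or 2 (0.183 and 0.126). The interleukins IL4, IL9 and IL13 had at most 2 counts in any library. Of 5 tested genes whose proteases can act on KITLG, ADAM10 fell from 150 ± 40.1 to 111 ± 18.7 CPM (adjusted p = 0.00936), and 0 rose (median -0.02). Without the mare in the model LTA4H, PTGS1, TGFB1, CCL5, IL33 and ADAM10 did not pass (adjusted p 0.216, 0.392, 0.257, 0.205, 0.176 and 0.282).

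Markers of cells that share genes with mast cells were set beside the members over 14 lists. Over all genes tested, 8.53% rose, 8.19% fell and 15.9% differed between mares. Basophil and eosinophil genes summed to 1.16 to 2.26 CPM in the cycle and 1.09 to 3.54 CPM in pregnancy over 5 genes, with 0 of 1 tested changed. The neutrophil genes S100A8, S100A9 and MPO had at most 2 counts per library. Over 8 neutrophil genes the sums were 6.03 to 23.9 CPM in the cycle and 6.96 to 24.8 CPM in pregnancy. Of these sums 1 gene alone gave 2.45 to 19.3 CPM. Of 3 tested neutrophil genes 0 changed, and 2 differed between mares. Both had their highest mean in mare 3 (7.96 and 4.40 CPM), the mare with the lowest means of the mast cell genes. Of 4 pan-leukocyte genes 0 changed and 0 differed between mares, with sums of 134, 86.2, 98.7 and 105 CPM in the cyclic and 134, 143, 102 and 124 CPM in the pregnant libraries of mares 1 to 4. Those sums put mare 1, not mare 4, highest in the cycle. Of 4 dendritic cell genes tested 0 changed, and of 7 macrophage and monocyte genes 1 rose (CD14, 1.47-fold) and 0 fell. Between mares 1 of these 4 and 2 of these 7 genes differed. Of 8 lymphoid genes 1 rose (CD3D, 1.53-fold) and 0 differed between mares. The melanocyte genes TYR and TYRP1, whose cells also use KIT, had 0 counts, and 0 of 2 tested melanocyte genes changed. ANO1, ETV1 and CD34, listed for interstitial cells of Cajal type, rose in 3 of 3 cases (log2 fold change 0.91 for ANO1 and 0.58 for CD34). Their sum went from 68.2 to 85.9 CPM in the cycle to 102 to 146 CPM in pregnancy. Most of this sum was CD34, with 58.4 to 121 CPM, while ANO1 had 6.09 to 22.2 CPM and ETV1 0.559 to 2.19 CPM. The sum thus follows CD34 and is not a count of such cells. The part of the 3 genes in the values of KIT was not tested. The call of ETV1 was lost without mare 2, 3 or 4 (adjusted p 0.103, 0.111 and 0.0733) and with DESeq2 (0.0858), and that of CD3D without mare 1, 2 or 4 (0.0539, 0.0600 and 0.0595); without the mare in the model ANO1, CD34, ETV1 and CD3D had 0.0622, 0.0520, 0.0691 and 0.204. The mast cell marker list holds the members other than KITLG and 6 further genes, of which 4 were found in the count table by symbol. All 4 were tested, and 0 changed and 0 differed between mares.

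Markers of the cell types that can make KITLG changed in both directions, where 8.53% of all genes tested rose and 8.19% fell. Of 4 tested epithelial genes 0 rose and 2 fell, KRT7 (log2 fold change -0.59 ± 0.10; adjusted p = 0.00384) and KRT18 (-0.31 ± 0.08; adjusted p = 0.0244), and the list summed to 1273 to 1626 CPM in the cycle and 1171 to 1281 CPM in pregnancy. Of 6 endothelial genes 6 rose, from 368 to 527 CPM in sum to 658 to 1143 CPM. Of 6 stromal genes 3 rose (VIM, PDGFRB and DCN), and of 4 smooth muscle genes 2 rose (CNN1 and DES). An erythrocyte list was read beside these, not as a source of KITLG. GYPC, the 1 gene tested on it, rose 1.74-fold, while HBB had at most 2 counts in any library and ALAS2 had 0. The rise of GYPC alone is therefore not read as a measure of red cells. The call of KRT18 was lost without mare 1, 2 or 4 (adjusted p 0.129, 0.0592 and 0.0579), with library totals (0.0723) and in the likelihood ratio test (0.110), and DES without mare 1 or 2 (0.0940 and 0.116). Without the mare in the model KRT7, KRT18, PDGFRB and DCN had adjusted p of 0.170, 0.382, 0.132 and 0.0696. The part of these shifts in the fall of KITLG was not tested.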

How the data were processed

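The authors deposited raw read counts per NCBI Gene ID for 8 libraries. The submitters' processing notes list Trimmomatic 0.32.2 and HISAT2 2.0.3; for build, annotation and counter nothing is stated (not given in the sources used here). A second deposited table of signal values holds TMM-scaled CPM of 14037 genes that exceed 2 CPM in 2 or more libraries; 100% of its values were recomputed from the counts within a relative tolerance of 1e-06. No column was left unused (0 columns). Poly(A) libraries were made without strand marking, per the labels' protocols. Symbols came from the RefSeq table of the telomere-to-telomere thoroughbred assembly, which matched 21420 of 24942 IDs (85.9%); no coordinates or sequences were used.

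The counts went through edgeR 4.0.16 (R 4.3.3): filterByExpr (minimum count 10), TMM, and the robust quasi-likelihood test with mare as block, with Benjamini-Hochberg adjustment over 15342 genes and a threshold of 0.05. The mare terms were tested jointly in the same model. The block follows from the design, in which both biopsies came from 1 mare; same-mare libraries deviated together (correlations 0.54, 0.38, 0.48 and 0.47 across genes). Replicate libraries were not copies (lowest chi-square per degree of freedom 24.6). Levels are not compared between genes, since no transcript lengths were used. Alternatives used limma 3.58.1, DESeq2 1.42.0, other scalings, filters and tests, and left out each mare. On simulated data with known changes, both tests made more false calls than the nominal share, the mare test more so.

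Members and lists were chosen with earlier results of these data known. Named are the members; from each list up to 4 genes that passed, smallest p first, or else up to 2 of the most abundant; and the 3 genes most like each member, of which 1 is not reported here. Some of the genes that the cell type lists give under this rule are left unnamed for length. Further genes named (IL1RL1, FCER1G, SLC18A2, TPSG1, RGS13, MRGPRX2, HRH1 to HRH4, HNMT, the interleukins and the markers at or near 0) were picked after their values were seen. Promoter motifs, also planned, were not analysed here.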

Additional observations from a re-analysis of the deposited data

Results flagged for a closer look

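Within groups of 4 libraries, 1 library lay far from the other 3 in 4 of 102 groups checked (51 genes in 2 states), and chance gives about 5% of groups. The pregnant library of mare 3 had 48.8 CPM of KITLG, against 91.3 to 96.2 CPM in the other 3 pregnant libraries. The cyclic library of mare 3 had 30.5 CPM of SLC18A2, against 67.2 to 73.4 CPM in the other 3 cyclic libraries. The pregnant library of mare 1, the shallowest, had 57.8 CPM of SLC29A4, against 18.2 to 21.8 CPM. The pregnant library of mare 3 had 58.6 CPM of LAPTM5, a lysosomal protein of leukocytes, against 76.7 to 77.1 CPM.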

How the results depend on the processing

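The number of genes changed was 389 (268 higher, 121 lower) with no replicate block, and 1266 to 2057 when each mare was left out in turn, the lowest without mare 1. With library totals in place of TMM it was 2280, split into 1416 higher and 864 lower, against 1309 and 1256. KITLG fell in 12 of 12 alternatives (log2 fold change -0.65 to -0.39) and passed in 9; with no replicate block it had -0.54 (adjusted p = 0.353) and the number of members changed was 0. Leaving out each mare gave 0 to 1 members changed (0 without mare 1 or 3) and log2 fold changes of -0.65 to -0.39 for KITLG. For members that did not pass, leaving out each mare gave log2 fold changes of -0.31 to 0.34 for TPSB2, -0.46 to 0.12 for HDC and -0.20 to 0.10 for MS4A2, so that their sign is not settled. KIT (0.25 to 0.58) and FCER1A (0.22 to 0.56) stayed above 0 and did not pass in 12 of 12. The mares differed in 1103 to 2049 genes and in 3 to 6 members when each mare was left out. HDC lost its difference between mares without mare 1 (adjusted p = 0.0542) and mare 4 (0.456), MS4A2 without mare 4 (0.0888), FCER1A without mare 3 (0.0569) and KITLG without mare 3 (0.349); KIT kept it in 11 of 11 alternatives. The KIT over KITLG ratio, an alternative set chosen after seeing the data, was 0.86 to 1.10 without 1 mare. Among 45 other named genes, 478 of 538 alternatives gave the same direction and call, 55 lost and 2 gained a call, and 3 changed sign without passing: IL1RL1 spanned -0.034 to 0.48 and SLC18A2 -0.40 to 0.039 over the fits that left out a mare. With no replicate block 25 of the 34 calls among these genes were lost (adjusted p 0.0520 to 0.528). Causes were not tested. MS4A2, HDC and FCER1A rest on 8 to 96 counts per library, which limits how small a difference can be seen.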
